A study of Mus musculus with 8 samples.

Results

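The 9 genes described here carry pyruvate and lactate through the cell, and all 9 were found by their symbols among the 22520 rows of the expression table. They are the lactate dehydrogenase genes Ldha and Ldhb, the monocarboxylate transporter genes Slc16a1 (MCT1) and Slc16a3 (MCT4), the mitochondrial pyruvate carrier genes Mpc1 and Mpc2, and the mitochondrial enzymes Pcx, Gpt2 and Me2. They were chosen by name, for their place in metabolism, with earlier results of these data known. RNA was measured in CD8+ T cells from the mouse spleen, which were stimulated for 6 days with antibodies to CD3 and CD28 and with IL-2. From day 3 the cultures received either 40 µM DADA, a dichloroacetate salt that inhibits pyruvate dehydrogenase kinase, or an equal volume of the solvent DMSO, and cells were harvested on day 6. There were 4 libraries in each group, which the submitters call biological replicates. Both groups therefore share the stimulation and, by the labels, differ only in DADA. The sources used here do not state whether the libraries came from separate mice or separate cultures. The study describes this kind of culture with wild-type mice. Male C57BL/6J mice are among those it lists, all of them young adults, but it does not name the strain for these libraries.

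Pyruvate is the end product of glycolysis, and these 9 genes stand at its main branches other than pyruvate dehydrogenase. In the cytosol, lactate dehydrogenase turns pyruvate into lactate and regenerates NAD+, and monocarboxylate transporters move lactate across the plasma membrane together with a proton. The mitochondrial pyruvate carrier brings pyruvate into the matrix, where it can become acetyl-CoA, oxaloacetate or alanine, and malic enzyme can make it again from malate. Activated T cells are known for a high output of lactate even when oxygen is present.

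Values are FPKM, in which each gene's fragments are divided by its transcript length and by library depth, so that levels of different genes can be set side by side per length. Differences between the groups are given on the scale of log2(FPKM + 1), tested with limma over the 10666 genes for which 4 or more of the 8 libraries reached 1 FPKM. A gene is called changed where the p-value, adjusted over these genes by Benjamini and Hochberg's method, was under 0.05. The estimated depth was 13840000 to 16480000 fragments with DMSO and 15270000 to 19030000 with DADA, as an estimate from the lowest values, since the table holds no counts. Libraries of a group correlated at 0.993 to 0.995 across genes, and libraries of different groups at 0.958 to 0.961. The 5 CD8 T cell markers Cd3d, Cd3e, Cd3g, Cd8a and Cd8b1 summed to between 674 and 680 FPKM with DMSO and between 776 and 805 FPKM with DADA, and all 5 were called higher. Of 6 myeloid markers, only Cd68 passed the filter on low values. It was called higher, the list summed to between 3.51 and 3.99 FPKM with DMSO and between 5.15 and 5.72 FPKM with DADA, and Csf1r and Adgre1 were listed at 0. The B cell markers summed to at most 3.54 FPKM in any library, nearly all of it Cd79b, which was tested and not called, and Pax5 was listed at 0. The erythroid markers summed to at most 0.426 FPKM. The CD4 T cell list summed to between 15.3 and 17.4 FPKM in the 8 libraries, nearly all of it Zbtb7b, while Cd4 itself reached at most 0.411 FPKM. Foxp3, under the filter, was 0.0426 to 0.103 FPKM with DMSO and 0.187 to 0.268 FPKM with DADA. The NK cell list summed to between 13.3 and 14.2 FPKM with DMSO and between 10.1 and 11.2 FPKM with DADA. Nearly all of it was Eomes, which CD8 T cells also make, and Ncr1 reached at most 0.136 FPKM. Klrb1c, also under the filter, went the other way, at most 0.0484 FPKM with DMSO and 0.144 to 0.249 FPKM with DADA. The part of these marker differences in the results below was not tested, and in bulk RNA fewer cells of a type and less RNA per cell cannot be told apart.

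All 9 genes passed the filter on low values and all 9 were called changed, where 66.2% of all genes tested were called. The 4 genes higher with DADA were Slc16a3, Pcx, Ldha and Me2, where 30.9% of all genes were called higher. The 5 lower genes were Mpc2, Ldhb, Mpc1, Gpt2 and Slc16a1, where 35.3% of all genes were called lower. For each of the 9 genes the 4 DADA values lay wholly above or wholly below the 4 DMSO values, which was also true of 60.6% of all genes tested. With so many genes called, the count of 9 is a description. The median size of the difference was 0.56 on the log2 scale over the 9 genes and 0.21 over all genes tested, and the signed medians were -0.31 and -0.02.

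**Figure D1:**
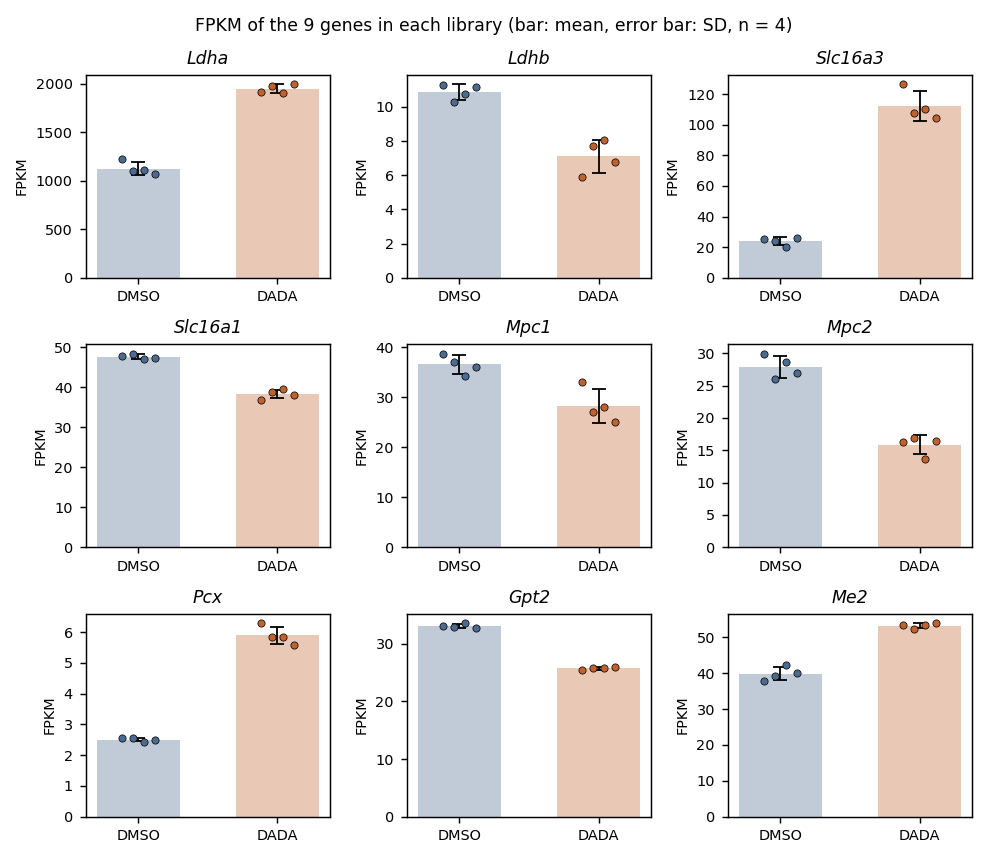
FPKM of each of the 9 genes (vertical axes, linear and starting at 0) in the 4 DMSO and the 4 DADA libraries. Points are libraries, bars are means and error bars are SD (n = 4). The groups do not overlap for any gene, and the vertical scales differ from panel to panel, from about 6.29 FPKM at most for Pcx to 1996 FPKM for Ldha.

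**Figure D2:**
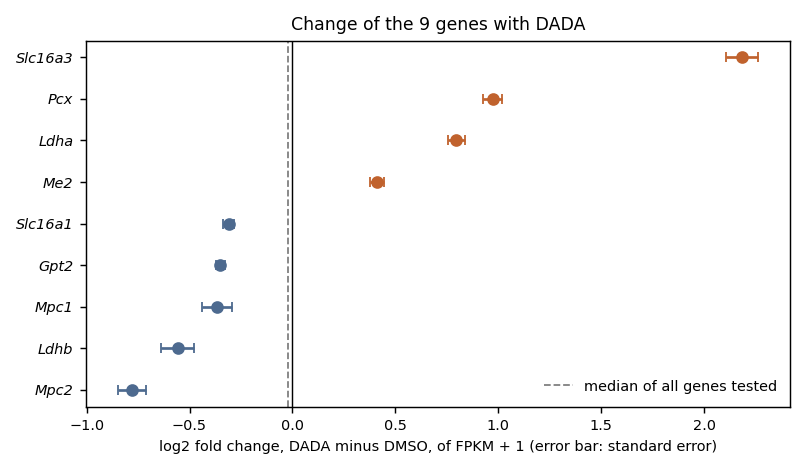
Difference between DADA and DMSO on the log2(FPKM + 1) scale for the 9 genes, with the standard error from limma. Slc16a3 stands at 2.18 and Mpc2 at -0.78, and the dashed line marks the median of all genes tested at -0.02.

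Ldha (ENSMUSG00000063229) encodes the A subunit of lactate dehydrogenase, which is the form that predominates in muscle and in many glycolytic cells. With DMSO its level was 1226, 1100.3, 1107 and 1067 FPKM in the 4 libraries, and with DADA it was 1920, 1982, 1904 and 1996 FPKM. The lowest DADA library stood 678 FPKM above the highest DMSO library. The mean rose from 1125 ± 69.4 to 1951 ± 45.4 FPKM (SD, n = 4), a difference of 0.80 on the log2 scale (SE 0.0406, limma adjusted p = 7.77e-08). Ldha was among the most abundant transcripts in both groups, at rank 49 to 57 of the table's 22520 rows in the DMSO libraries and rank 16 to 19 in the DADA libraries. GENCODE M21 holds 13 other genes that share at least 200 bases with Ldha at 90% identity or more, and none of them has a row in the table, so reads shared with these copies cannot be separated.

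Ldhb (ENSMUSG00000030246) encodes the B subunit, the form typical of heart. Its level was 11.3, 10.3, 10.8 and 11.2 FPKM with DMSO and 5.90, 7.70, 8.07 and 6.79 FPKM with DADA. The groups did not overlap, and the DADA values were the more spread. The mean fell from 10.9 ± 0.452 to 7.11 ± 0.971 FPKM (SD, n = 4), a difference of -0.56 on the log2 scale (SE 0.0792, limma adjusted p = 0.000137).

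The lactate dehydrogenase genes thus differed in opposite directions. Within each library, the ratio of Ldha to Ldhb in FPKM was 95.4 to 109 with DMSO and 236 to 325 with DADA. The mean ratio was 103 ± 5.92 with DMSO and 278 ± 39.5 with DADA (SD, n = 4), and the log2 ratio, taken with 1 FPKM added to each gene, differed by 1.35 (exact permutation test, two-sided, p = 0.0286 and adjusted p = 0.0286 over the 3 gene pairs compared, the smallest that 4 against 4 libraries allow). Because Ldha rose and Ldhb fell without overlap of the groups, this p was fixed in advance and adds nothing to the results for the single genes. Since Ldha was so much the more abundant, its share of the summed FPKM moved only from 99.0% ± 0.0563 to 99.6% ± 0.0511.

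Slc16a3 (ENSMUSG00000025161) encodes MCT4, a lactate exporter of glycolytic cells. Its level was 25.0, 24.3, 20.4 and 26.0 FPKM with DMSO and 127, 108, 110.1 and 104 FPKM with DADA. All 4 DADA libraries were at least 78.3 FPKM above the highest DMSO library. The mean rose 4.69-fold, from 23.9 ± 2.48 to 112 ± 9.85 FPKM (SD, n = 4), a difference of 2.18 on the log2 scale (SE 0.0784, limma adjusted p = 6.15e-09). This was the largest difference among the 9 genes, and 69 genes of those tested, or 0.647%, rose by at least as much, Slc16a3 included. Its rank by level moved from 3099 to 3865 in the DMSO libraries to 473 to 585 in the DADA libraries.

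Slc16a1 (ENSMUSG00000032902) encodes MCT1, which carries lactate in either direction and is made by most cells. Its level was 47.8, 48.3, 47.1 and 47.3 FPKM with DMSO and 36.9, 38.7, 39.5 and 38.0 FPKM with DADA. The libraries of each group lay close together, and the groups were 7.66 FPKM apart. The mean fell from 47.6 ± 0.550 to 38.3 ± 1.08 FPKM (SD, n = 4), a difference of -0.31 on the log2 scale (SE 0.0262, limma adjusted p = 3.18e-06).

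With DMSO, Slc16a1 was the higher of these transporter genes in all 4 libraries, and with DADA Slc16a3 was the higher in all 4. The ratio of Slc16a3 to Slc16a1 was 0.524, 0.502, 0.432 and 0.550 in the DMSO libraries and 3.43, 2.79, 2.79 and 2.74 in the DADA libraries. The mean ratio was 0.502 ± 0.0506 with DMSO and 2.94 ± 0.328 with DADA (SD, n = 4), and the log2 ratio differed by 2.49 (exact permutation test, two-sided, p = 0.0286, adjusted p = 0.0286 over the 3 pairs). Here too the p was fixed in advance, because Slc16a3 rose and Slc16a1 fell without overlap of the groups. Slc16a3 made up 33.4% ± 2.29 of their summed FPKM with DMSO and 74.5% ± 1.97 with DADA. The sum itself was 67.5 to 73.3 FPKM with DMSO and 142 to 163 FPKM with DADA.

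**Figure D3:**
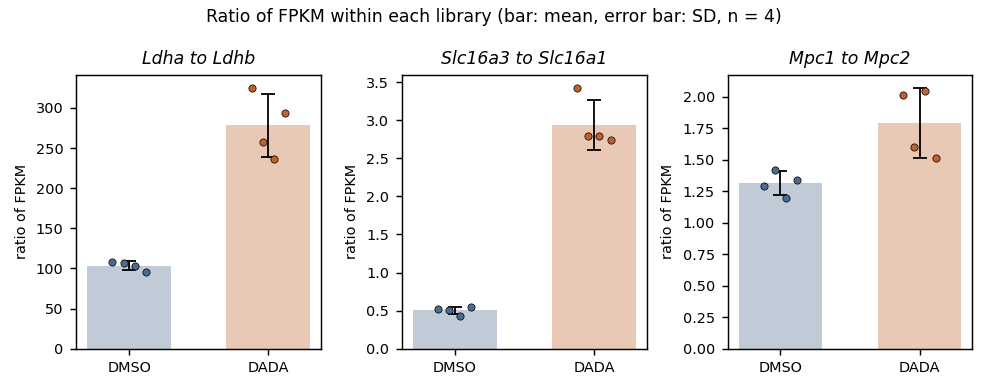
Ratio of FPKM within each library for the 3 pairs of related genes (linear vertical axes starting at 0). Points are libraries, bars are means and error bars are SD (n = 4). The mean ratio of Slc16a3 to Slc16a1 was 0.502 with DMSO and 2.94 with DADA, and the DADA ratios of Mpc1 to Mpc2 lay between 1.51 and 2.05.

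MCT1 and MCT4 reach the plasma membrane with a glycoprotein partner, mainly basigin, encoded by Bsg, and embigin, encoded by Emb, can also serve MCT1. Bsg was 177 to 185 FPKM with DMSO and 461 to 486 FPKM with DADA, with no overlap. Its mean rose from 180 ± 3.50 to 476 ± 11.6 FPKM (SD, n = 4), a difference of 1.40 on the log2 scale (limma adjusted p = 4.13e-11). Emb rose from 48.1 ± 0.672 to 68.0 ± 0.951 FPKM (SD, n = 4), a difference of 0.49 (limma adjusted p = 2.9e-08). These belong to a list of 20 other lactate and monocarboxylate genes, of which 7 passed the filter, with 3 called higher, 3 lower and 1 not called, and a median log2 difference of -0.09. Among the 3 lower genes, Slc16a11 fell from 3.79 ± 0.456 to 2.51 ± 0.359 FPKM (SD, n = 4), or -0.45 on the log2 scale. Slc16a4, also counted there, was at 1.18 ± 0.0928 and 0.580 ± 0.0642 FPKM (SD, n = 4), or -0.46, but it passed the filter only through the DMSO libraries, where it was the higher, so its call is no support for a fall of the list. The 13 genes under the filter reached at most 0.495 FPKM in any library. Among them, the testis form Ldhc, the sodium-coupled monocarboxylate carrier Slc5a12 and the lactate receptor Hcar1 were listed at 0 in every library.

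Promoter windows from RefSeq (build GRCm38.p6) ran from 250 bases before to 50 bases after each annotated start. Windows of 1 chromosome, the one that carries Me2, were left out of this search, so Me2 was not covered. The shares over all windows given below kept that chromosome. The windows taken covered 8 of the 9 genes, with 11 windows in all. They were searched on both strands for ACGTG, the core of the hypoxia response element that HIF binds, with GCGTG as its other common form, and for the E-box CACGTG, which contains ACGTG and which factors such as MYC and USF bind. ACGTG was found in 1 window each of Ldha, Slc16a3, Pcx and Slc16a1, and in no window of Mpc1, Mpc2, Ldhb and Gpt2. Of the genes with ACGTG, the first 3 were higher with DADA and Slc16a1 was lower, and the 4 genes without it were all lower. Me2, which was also higher with DADA, was not searched. This split therefore covers only the 8 genes searched, and Me2 could go either way. GCGTG was found in Ldha, which was higher, and in Slc16a1, Mpc1, Mpc2 and Ldhb, which were lower, and in no window of Slc16a3, Pcx or Gpt2, so that the genes with and without this form each included both directions. Each of the 4 windows held at least 2 matches. Of all 32817 windows in the same table, 19.6% held ACGTG and 2.69% held at least 2 matches, 32.4% held GCGTG and 7.15% held CACGTG. A match is a string of letters and not a measured binding site, and no binding was measured here.

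The 4 windows with ACGTG are printed 5′ to 3′ on the + strand, because they hold the matches. Capitals mark each match to ACGTG or its reverse complement CACGT, with CACGTG marked whole, and positions count in bases from the annotated start, negative before it. The Ldha window is chr7:46845554-46845853, with matches at -145, -48 and -34, the first and second of them CACGTG. The Slc16a3 window is chr11:120948817-120949116, with matches at -27 and -14. The Pcx window is chr19:4510222-4510521, with matches at -248 and -140, the first of them CACGTG. The Slc16a1 window is chr3:104638414-104638713, with CACGTG at -200 and ACGTG at 20.
Ldha: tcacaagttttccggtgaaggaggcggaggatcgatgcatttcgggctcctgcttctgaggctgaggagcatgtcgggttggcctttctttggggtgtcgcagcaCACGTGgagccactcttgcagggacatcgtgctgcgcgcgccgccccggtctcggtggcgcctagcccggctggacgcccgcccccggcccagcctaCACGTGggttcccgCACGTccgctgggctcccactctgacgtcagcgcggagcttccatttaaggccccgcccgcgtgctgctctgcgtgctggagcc
Slc16a3: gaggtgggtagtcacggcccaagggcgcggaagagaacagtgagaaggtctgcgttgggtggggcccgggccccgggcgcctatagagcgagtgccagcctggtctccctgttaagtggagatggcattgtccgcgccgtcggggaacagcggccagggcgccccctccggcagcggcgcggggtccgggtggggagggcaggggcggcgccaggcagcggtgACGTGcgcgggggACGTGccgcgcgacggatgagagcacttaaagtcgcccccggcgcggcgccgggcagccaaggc
Pcx: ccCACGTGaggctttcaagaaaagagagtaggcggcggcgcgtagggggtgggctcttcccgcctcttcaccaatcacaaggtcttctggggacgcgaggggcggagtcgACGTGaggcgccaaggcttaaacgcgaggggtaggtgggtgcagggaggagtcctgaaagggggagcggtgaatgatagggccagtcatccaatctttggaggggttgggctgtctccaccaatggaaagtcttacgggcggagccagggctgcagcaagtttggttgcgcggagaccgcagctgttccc
Slc16a1: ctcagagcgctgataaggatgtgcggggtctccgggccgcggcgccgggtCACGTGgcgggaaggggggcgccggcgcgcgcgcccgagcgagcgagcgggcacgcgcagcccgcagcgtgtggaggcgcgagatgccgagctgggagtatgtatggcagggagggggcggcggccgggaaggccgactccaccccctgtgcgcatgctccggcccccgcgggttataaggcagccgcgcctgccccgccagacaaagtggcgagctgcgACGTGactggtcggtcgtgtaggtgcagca

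Mpc1 and Mpc2 encode the subunits of the mitochondrial pyruvate carrier, which works as a pair of the MPC1 and MPC2 proteins in the inner membrane. For Mpc1 (ENSMUSG00000023861) the level was 38.7, 37.1, 34.2 and 36.1 FPKM with DMSO and 33.0, 27.1, 28.0 and 25.0 FPKM with DADA. The first DADA library came within 1.27 FPKM of the lowest DMSO library, the smallest gap among the 9 genes, so that Mpc1 was the closest of them to overlap. The mean fell from 36.5 ± 1.85 to 28.2 ± 3.39 FPKM (SD, n = 4), a difference of -0.37 on the log2 scale (SE 0.0732, limma adjusted p = 0.0014).

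For Mpc2 (ENSMUSG00000026568) the level was 29.9, 26.1, 28.7 and 27.0 FPKM with DMSO and 16.4, 16.9, 13.7 and 16.5 FPKM with DADA. The third DADA library was the lowest, and the groups were 9.14 FPKM apart. The mean fell from 27.9 ± 1.73 to 15.9 ± 1.497 FPKM (SD, n = 4), a difference of -0.78 on the log2 scale (SE 0.0671, limma adjusted p = 3.56e-06). This was the largest fall among the 9 genes, and 114 of the genes tested, or 1.07%, fell by at least as much, Mpc2 included. By the same criterion, GENCODE M21 holds 3 near-identical copies of Mpc1 and 1 each of Mpc2, Ldhb and Gpt2, none with a row in the table, so the same limit holds for these genes.

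The carrier genes fell unequally. The ratio of Mpc1 to Mpc2 was 1.29, 1.42, 1.19 and 1.34 in the DMSO libraries and 2.02, 1.60, 2.05 and 1.51 in the DADA libraries. The mean was 1.31 ± 0.0955 with DMSO and 1.79 ± 0.278 with DADA (SD, n = 4), and the log2 ratio differed by 0.42 (exact permutation test, two-sided, p = 0.0286, adjusted p = 0.0286 over the 3 pairs). The DADA libraries were spread over a range wider than that of the DMSO libraries, but none fell among them. The summed FPKM of the carrier genes was 63.0 to 68.6 with DMSO and 41.5 to 49.3 with DADA.

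Pyruvate that enters the matrix can be oxidised by the pyruvate dehydrogenase complex, whose kinases are the target of DADA. Of 12 genes for the complex and its regulators, 10 passed the filter, with 3 called higher, 6 lower and 1 not called, and a median log2 difference of -0.24. Pdha1, the E1 alpha subunit that the kinases phosphorylate, rose from 57.5 ± 1.71 to 75.8 ± 0.724 FPKM (SD, n = 4), or 0.39 on the log2 scale. The phosphatase gene Pdp2 rose by 0.27, whereas the other phosphatase gene, Pdp1, was called lower, at -0.38. The kinase gene Pdk1 fell from 40.7 ± 0.614 to 19.0 ± 0.381 FPKM (SD, n = 4), or -1.06 on the log2 scale, and Pdhx, the E3-binding protein, changed by -0.52. The kinase gene Pdk3 was the 1 not called, at 0.09. Mpc1 and Mpc2 therefore moved in the direction of 6 of the 10 tested genes of this list, and against that of Pdha1.

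Pcx (ENSMUSG00000024892) encodes pyruvate carboxylase, the biotin-dependent enzyme that makes oxaloacetate from pyruvate. Its level was 2.55, 2.56, 2.44 and 2.49 FPKM with DMSO and 6.29, 5.85, 5.84 and 5.58 FPKM with DADA, with a gap of 3.03 FPKM between the groups. The mean rose 2.35-fold, from 2.51 ± 0.0567 to 5.89 ± 0.292 FPKM (SD, n = 4), a difference of 0.97 on the log2(FPKM + 1) scale (SE 0.0469, limma adjusted p = 5.19e-08). Adding 1 FPKM understates the change of so low a gene, and with 0.1 FPKM added the difference was 1.20. Pcx was the lowest of the 9 genes in every library but 1 and the only one below a mean of 5 FPKM over the 8 libraries.
The gene Lrfn4 lies within Pcx on the opposite strand, and strand-specific counting is not stated, so their reads may not be fully separated. Lrfn4 was 2.45 ± 0.130 FPKM with DMSO and 1.44 ± 0.0581 FPKM with DADA (SD, n = 4), a difference of -0.50 on the log2 scale and opposite to that of Pcx.

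Gpt2 (ENSMUSG00000031700) encodes mitochondrial alanine aminotransferase, which exchanges pyruvate and glutamate for alanine and 2-oxoglutarate. Its level was 33.0, 32.9, 33.5 and 32.7 FPKM with DMSO and 25.4, 25.7, 25.8 and 25.9 FPKM with DADA. The replicates were tightly grouped on both sides. The mean fell from 33.0 ± 0.360 to 25.7 ± 0.203 FPKM (SD, n = 4), a difference of -0.35 on the log2 scale (SE 0.0229, limma adjusted p = 4.73e-07). Gpt, the cytosolic form, was lower in level than Gpt2 and also fell, from 2.42 ± 0.224 to 1.83 ± 0.405 FPKM (SD, n = 4; -0.28 on the log2 scale, limma adjusted p = 0.0259), although 1 DADA library at 2.44 FPKM lay among the DMSO values.

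Me2 (ENSMUSG00000024556) encodes the mitochondrial NAD-dependent malic enzyme, which makes pyruvate from malate inside the matrix. Its level was 37.9, 39.2, 42.3 and 39.9 FPKM with DMSO and 53.5, 52.3, 53.3 and 53.8 FPKM with DADA. All DADA libraries were at least 9.97 FPKM above the DMSO libraries. The mean rose from 39.8 ± 1.86 to 53.2 ± 0.658 FPKM (SD, n = 4), a difference of 0.41 on the log2 scale (SE 0.0330, limma adjusted p = 2.21e-06). Me1, the cytosolic NADP-dependent form, was at 0.103 to 0.166 FPKM with DMSO and at 1.59 to 1.86 FPKM with DADA, and it passed the filter only through the DADA libraries. Its mean was 0.127 ± 0.0281 and 1.74 ± 0.123 FPKM (SD, n = 4), so that Me2 remained the more abundant malic enzyme gene in every library. Me3 was listed at 0 in every library.

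Ordered by FPKM, the DMSO libraries had Ldha first, then Slc16a1, then Me2 and Mpc1, whose values overlapped, then Gpt2, Mpc2, Slc16a3, Ldhb and Pcx. With DADA, the order was Ldha, Slc16a3, Me2, Slc16a1, then Mpc1 and Gpt2, whose values overlapped, then Mpc2, and last Ldhb and Pcx, which also overlapped. Slc16a3 moved from the seventh place to the second and passed Slc16a1, Me2, Mpc1, Gpt2 and Mpc2. Me2 in turn passed Slc16a1. Neighbours other than those named as overlapping were separated in all libraries of the group.

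The genes that feed or share the pyruvate pool were read from the same fit. Of 14 paralogs and partners at the pyruvate node, 11 passed the filter, with 2 called higher, 6 lower and 3 not called, and a median log2 difference of -0.15 beside -0.02 over all genes tested. The 2 called higher were Btd, which recycles the biotin that pyruvate carboxylase needs, at 0.23 on the log2 scale, and Me1, at 1.28, which passed the filter only through the DADA libraries. Pkm, the pyruvate kinase gene of T cells that makes pyruvate from phosphoenolpyruvate, fell from 1553 ± 23.4 to 614 ± 12.1 FPKM (SD, n = 4), or -1.34 on the log2 scale (limma adjusted p = 3.08e-11), and Slc25a10, the mitochondrial dicarboxylate carrier, fell by 0.65. Ldha, which acts on the product of Pkm, thus moved against it, and with DMSO Pkm was the higher of these genes in every library whereas with DADA Ldha was.

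Lactate dehydrogenase competes for cytosolic NADH with the malate-aspartate and glycerol phosphate shuttles. Of 10 shuttle genes, 9 passed the filter, with 1 called higher, 4 lower and 4 not called, and a median log2 difference of -0.10. Gpd2, the mitochondrial glycerol phosphate dehydrogenase, rose by 0.20 on the log2 scale. The aspartate aminotransferase genes Got1 and Got2 changed by -0.44 and -0.33, in the same direction as Gpt2. For the glutamate that Gpt2 uses, 6 supply genes were tested, with 3 called higher, 2 lower and 1 not called, and a median of 0.15. The glutaminase gene Gls2 rose by 0.74 and the glutamine transporter gene Slc38a2 by 0.56, while the transporter genes Slc1a5 and Slc38a1 changed by -0.19 and -0.13.

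Of 17 genes from glucose entry to phosphoenolpyruvate, which supply the pyruvate, 12 were called higher, 4 lower and 1 not called, with a median of 1.00 on the log2 scale. The aldolase gene Aldoc rose by 2.76 and the glucose transporter gene Slc2a3 by 2.65, whereas the transporter gene Slc2a1 and the hexokinase gene Hk1 changed by -1.96 and -1.10. Ldha and Slc16a3 moved with the larger number of these genes. Gapdh, counted among those called higher, was 26.2 to 145 FPKM with DMSO and 119 to 385 FPKM with DADA, with overlap, and its value is uncertain. Gapdh is known to have many pseudogenes, and their part in this spread was not tested.

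**Figure D4:**
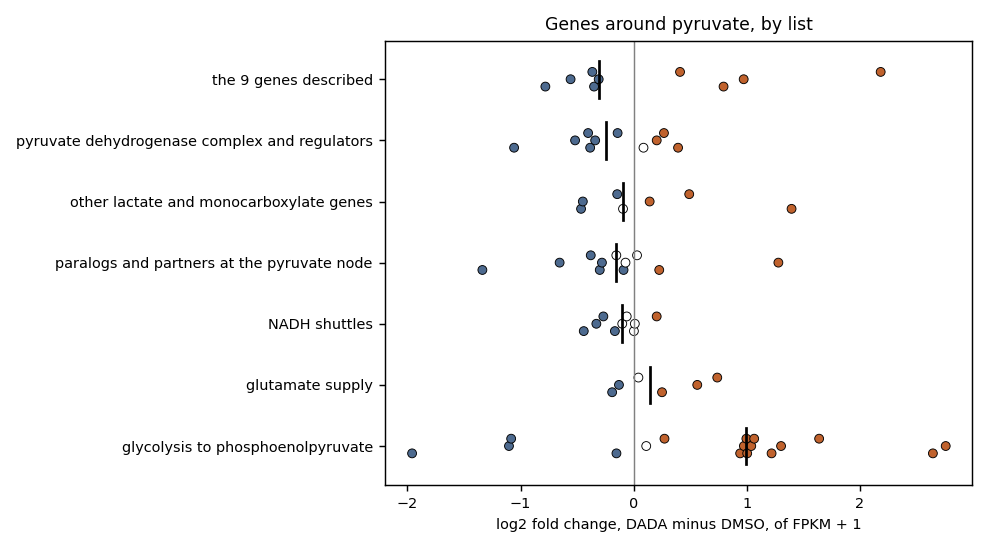
Difference between DADA and DMSO on the log2(FPKM + 1) scale (horizontal axis) for each tested gene, by list. Orange points were called higher, blue points lower and open points not called, and the vertical bars are list medians, at -0.31 for the 9 genes and 1.00 for glycolysis to phosphoenolpyruvate.

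For the gene with the largest rise and the one with the largest fall, the nearest profiles were sought among 8187 genes that averaged 5 FPKM or more. Likeness was the root mean square difference over the 8 libraries between log2 values set relative to each gene's DMSO mean. This measure includes the difference between the groups, so genes near by it have similar differences by construction. Among the nearest to Slc16a3 were Gbe1 at 0.122 and Slfn1 at 0.129, which differed between the groups by 2.21 and 2.14 on the log2 scale. Nearest to Mpc2 were Hmgn2 at 0.0525, Tk1 at 0.0722 and Bzw2 at 0.0772, which differed by -0.74, -0.75 and -0.78.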

How the data were processed

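RNA-seq libraries of stimulated mouse splenic CD8+ T cells, 4 with DMSO and 4 with DADA, were analysed. The authors deposited FPKM values, 1 for each gene and library, from paired-end sequencing with reads of 150 bases. The submitters' processing notes name CASAVA 1.8.2, FastQC 0.11.9, HISAT2 2.0.5, StringTie 1.3.3, Picard 1.41 and SAMtools 0.1.18, and the builds GRCh38 and GRCm39, without their roles. The strand setting of the counting is not given in the sources used here, and the labels and the study's methods name different library kits. Of 22520 rows, 404 are assembled transcripts.

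The depth is unknown and was only estimated from the steps between low values. Of these values, 32.1% to 39.1% lay within 0.1 of a whole fragment, where 20% would by chance at a depth fixed beforehand. The depth was instead chosen for the best fit to whole fragments, so this comparison overstates the support for it. No count test was run.

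Values were analysed as log2(FPKM + 1) for 10666 genes with at least 1 FPKM in 4 of 8 libraries, with limma 3.58.1 in R 4.3.3 (eBayes with a trend, Benjamini-Hochberg adjustment). Ratios were tested by two-sided exact permutation over 70 assignments. P-values measure the spread between these libraries only. Near-identical copies were sought with BLAST 2.17.0 in GENCODE M21, and the fit was tested on simulated data. The genes and the lists were chosen with earlier results of these data known. The genes named are the 9, the 2 largest called rises and falls of each other list, genes acting on the same metabolite, and the 3 nearest profiles of 2 genes, of which 1 is not reported here. Lrfn4, Gapdh, Pdp1, Pdk3, Cd79b, Foxp3, Klrb1c and the genes listed at 0 were named after their values were seen. Figures were drawn with matplotlib 3.10.9.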

Additional observations from a re-analysis of the deposited data

Results flagged for a closer look

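Among the 9 genes and the 3 ratios, 2 values stood apart from the other libraries of their group by Dixon's criterion for 4 samples, applied on the log2 scale. For Mpc2, the third DADA library at 13.7 FPKM lay below the others, at 16.4 to 16.9 FPKM, with a gap of 0.836 of the group's range. For the ratio of Slc16a3 to Slc16a1, the first DADA library at 3.43 lay above the others, at 2.74 to 2.79, with a gap of 0.922 of the range. In all, 24 groups were tested, and chance flags about 1 in 20, or 1.2 here. Both values lie on the far side of the DMSO libraries.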

How the results depend on the processing

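The fit was repeated under 17 alternatives: a pseudocount of 0.1, no filter, a mean of at least 5 FPKM, 3 other scalings, no trend, a replicate block, each library left out and, chosen after seeing the data, no assembled transcripts. Between 5741 and 7868 genes were called, and every one of the 9 genes kept its direction and its call wherever it was tested. Pcx was not tested under the mean of at least 5 FPKM, which left 8. The lowest and highest values were -0.44 and -0.31 for Mpc1 and 0.88 and 1.20 for Pcx. The median of all genes moved between -0.05 and 0.01, and the share of calls that were higher between 42.2% and 51.6%, beside 46.7%. With the replicate block, 6995 genes and all 9 were called. Whether the numbers pair the libraries is not known. With group means removed, same-numbered libraries correlated at -0.12 to 0.10, and 0 of 4 DMSO libraries correlated best with their own number. Such weak correlations cannot exclude a shared mouse or culture. With 1 library left out, the differences in log2 ratio were 1.28 to 1.42 for Ldha to Ldhb, 2.42 to 2.54 for Slc16a3 to Slc16a1 and 0.35 to 0.49 for Mpc1 to Mpc2, each with an exact permutation p of 0.0571, the smallest that 3 against 4 libraries allow. For Ldha to Ldhb and Slc16a3 to Slc16a1, that p follows from the separation of the single genes. The absence of read counts limits what can be said of genes near 0, and FPKM cannot show a change in the RNA content of the cells.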
